A study of Mus musculus with 9 samples.

Results

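The sarcomere is built from more than its myosin heavy chains and troponins, and the 53 genes described here code for the other structural parts of the skeletal muscle sarcomere and for the factors that assemble and hold it. They were found by gene name in both deposited tables, where each of the 53 names had a row among 55421 genes. By role they were 10 thin filament genes, 10 thick filament genes, 12 Z-disc genes, 5 M-band and titin genes, 6 genes of desmin, the costamere and filament attachment, 7 genes of assembly and turnover, and 3 muscle ankyrin repeat genes. Expression was measured by RNA-seq of polyadenylated RNA in C2C12 cells, a mouse myoblast line that fuses into myotubes in low serum, and the study asked what the C-terminal domain of PGC-1alpha, a transcriptional coactivator, contributes to its function. All cultures had been differentiated for 4 days and were then exposed to an adenovirus for 4 h at a multiplicity of infection of 3, with RNA taken 48 h after the start of infection. The virus carried LacZ as the control, HA- and Flag-tagged full-length PGC-1alpha (FL), or the tagged protein without its C-terminal domain (dCTD), and each of the 3 groups had 3 libraries. The series' design text calls these libraries biological replicates, all from 1 cell line, so p-values measure the spread between such cultures of C2C12.

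In a sarcomere, thin filaments of actin, tropomyosin and nebulin slide past thick filaments of myosin heavy and light chains and myosin binding proteins. The thin filaments are anchored in the Z-disc by alpha-actinins and their partners, the thick filaments are cross-linked in the M-band by myomesins, and titin runs between both. Desmin and costamere proteins tie neighbouring myofibrils to each other and to the membrane, and chaperones such as Unc45b fold myosin as filaments form. Many of these proteins come in isoforms typical of fast, slow, cardiac or developing muscle. PGC-1alpha is best known in muscle for raising mitochondrial genes and features of slow fibres.

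Promoters are shown for the 2 striated muscle actins, which fell with both forms of PGC-1alpha, and for Tpm3, the member that rose most with FL. A Tpm3 window was printed only on the condition that it held the ERR element described below. Its presence there is therefore a result of the choice. The windows run from 250 bases before to 50 bases after the annotated start, from RefSeq on GRCm38.p6, and 49 such windows were found for 40 of the 53 members. Capitals mark the motifs found on either strand, namely the CArG box bound by serum response factor, the MCAT element (CATTCC) bound by TEAD factors, the E-box (CAGCTG) bound by myogenic factors such as MyoD, the TATA letters (TATAAA) and the ERR element (AAGGTCA) of estrogen-related receptors, which are partners of PGC-1alpha. The MEF2 element was also searched. The motifs shown here do not overlap each other. The Acta1 window lies at chr8:123894726-123895025 on the minus strand, the Actc1 window at chr2:114052826-114053125 on the minus strand and the Tpm3 window at chr3:90072401-90072700 on the plus strand.
Acta1: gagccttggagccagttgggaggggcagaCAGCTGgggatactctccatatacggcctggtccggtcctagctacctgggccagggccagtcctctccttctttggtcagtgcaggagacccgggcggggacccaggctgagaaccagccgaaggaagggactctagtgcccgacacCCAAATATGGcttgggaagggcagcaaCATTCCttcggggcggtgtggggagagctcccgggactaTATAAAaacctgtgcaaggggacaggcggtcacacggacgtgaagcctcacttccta
Actc1: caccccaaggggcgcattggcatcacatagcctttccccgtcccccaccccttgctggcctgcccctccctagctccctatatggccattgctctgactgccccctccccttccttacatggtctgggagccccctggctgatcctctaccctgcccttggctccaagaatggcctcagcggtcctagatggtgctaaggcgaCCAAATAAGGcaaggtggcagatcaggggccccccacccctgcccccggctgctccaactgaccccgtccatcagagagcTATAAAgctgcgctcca
Tpm3: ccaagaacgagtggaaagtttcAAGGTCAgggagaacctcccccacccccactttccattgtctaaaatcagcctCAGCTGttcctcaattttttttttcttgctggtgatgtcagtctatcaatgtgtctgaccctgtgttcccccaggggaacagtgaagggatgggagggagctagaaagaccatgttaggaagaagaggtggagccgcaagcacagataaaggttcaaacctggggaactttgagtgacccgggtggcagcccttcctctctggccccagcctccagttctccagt
The first base of the CArG box stood 73 bases before the start in Acta1 and 47 bases before it in Actc1. The TATA letters began 7 bases before the start in Acta1 and at base 34 after it in Actc1. Distances are counted from the annotated start, and where transcription begins in these cells was not measured. In Tpm3 the ERR letters began 228 bases and the E-box 175 bases before the start. Over all members the CArG box was in 14.3% of the 49 windows, against 1.63% of 32851 windows of the same length across the genome's genes, and it was found for Acta1, Actc1, Ldb3, Myl3, Myom1 and Nebl. MEF2 letters were in 10.2% of members' windows against 3.19%, MCAT in 32.7% against 14.7%, and the E-box in 36.7% against 16.3%. The TATA letters were in 14.3% against 13.6%, and the ERR element in 4.08%, for Ankrd23 and Tpm3, against 4.72%. These shares describe letters in 1 window per annotated start and carry no test, and a match is not shown to be a bound site.

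The LacZ libraries held 110309704 to 118931863 reads. The FL libraries held 99906750 to 123446198, the dCTD libraries held 87090490 to 110673140, and between 25707 and 26957 genes had a read. Ppargc1a, the overexpressed gene, had 383 to 408 normalized counts in the LacZ libraries, 198071 to 227297 in the FL libraries and 100543 to 121631 in the dCTD libraries. Its count with dCTD was below that with FL. The coding sequence without the C-terminal domain is shorter and can give fewer reads per transcript, so the 2 counts are not like-for-like measures of mRNA. The amount of virus-derived mRNA cannot be told apart from the deletion in a comparison of the 2 forms. The cells carried the label of myotubes, and in the LacZ libraries Myog, a marker of differentiating myocytes, stood at 49390 and Pax7, a marker of undifferentiated precursors, at 3123 normalized counts. Myog fell with both forms, to 33020 with FL (log2 -0.58, limma adjusted p = 1.95e-14) and 33060 with dCTD (log2 -0.59, adjusted p = 6.09e-12). Myod1, the myogenic factor upstream of it, fell by 0.60 and by 0.49 on the log2 scale. Markers of other cells moved with the groups. Of 10 markers of proliferating cells, 9 rose and 1 fell with FL, 2 rose and 1 fell with dCTD, and their summed level was 31869 to 33847 in the LacZ, 53957 to 55202 in the FL and 34752 to 34990 in the dCTD libraries, with Rrm2 and Birc5 at log2 changes of 1.29 and 0.90 with FL. Of 12 markers of myoblasts and reserve cells, 4 rose and 4 fell with FL and 5 rose and 4 fell with dCTD, and their summed level was 203268 to 210451 in the LacZ, 170397 to 176262 in the FL and 167461 to 174265 in the dCTD libraries. Much of that sum, and its fall, was Itga7, an integrin, at a mean of 123800 with LacZ, 81470 with FL and 85730 with dCTD. With FL, Itga7 was at log2 -0.60 and Sdc4, a syndecan, at 0.62, both called. Myf5 (log2 0.80 with FL and 0.79 with dCTD), Vcam1 (0.40 and 0.46) and Met (0.38 and 0.12) rose with both forms. Spry1 (-0.51 and -0.36), Cdh15 (-0.14 and -0.31) and Notch1 (-0.16 and -0.27) fell with both. No gene of these 2 lists was at 0 reads in a group. Their part in the results was not tested. In such bulk RNA, fewer myotube nuclei and less RNA of a gene per myotube cannot be told apart.

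Levels between genes were compared as normalized counts per kilobase of annotated exon, on 1 scale over the 9 libraries. The length joined the exons of all annotated transcripts of a gene, 15.2 kb for Nebl. Where each transcript holds only part of these exons, the level per kb is understated, and ranks of such genes are uncertain. With LacZ the highest member was Mylpf, the fast regulatory light chain, at 488948 ± 12800 per kb (SD, n = 3), followed by skeletal alpha-actin Acta1 at 176297 ± 8470, the fast essential light chain Myl1 at 143502 ± 6720, beta-tropomyosin Tpm2 at 63147 ± 1360 and desmin at 60331 ± 2660. Tpm2 and Des, neighbours in that order, differed by less than the sum of their SDs, while the 3 above them were further apart than that. The lowest were Myl3, the slow essential light chain, at 15.4 ± 5.41 per kb, Myoz3 at 18.9 ± 1.96 and Nebl at 19.1 ± 0.99, which also lay within their spread of each other. With FL, Mylpf was still highest, at 270956 ± 1640 per kb, and Des stood next at 109488 ± 5140, above Myl1 at 89126 ± 1190 and Acta1 at 88935 ± 469, whose values differed by less than their SDs. With dCTD the order of the first 4 was Mylpf at 288803 ± 22900, Myl1 at 135656 ± 5960, Acta1 at 110625 ± 3610 and Des at 68660 ± 2660 per kb. Among the 53 members, Tpm3 was at rank 19 with LacZ, 9 with FL and 12 with dCTD, and Myl2, the slow regulatory light chain, moved from rank 42 with LacZ to 36 with FL and 22 with dCTD. The signed log2 fold change of a member had a Spearman's rho with its level of -0.12 for FL against LacZ and -0.16 for dCTD against LacZ, across the 53 genes, as a description over genes that share libraries.

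**Figure D1:**
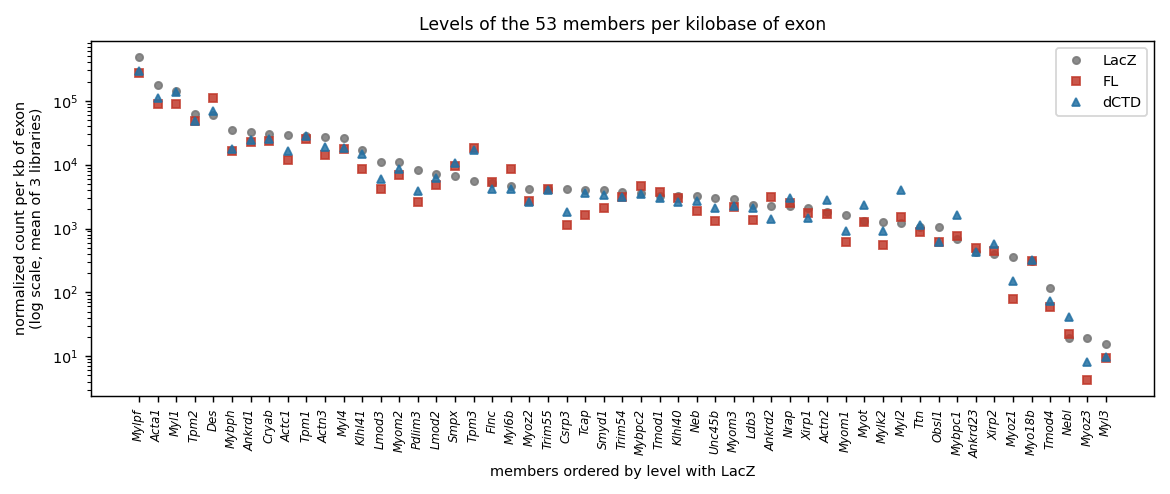
Normalized count per kilobase of exon (log scale, mean of 3 libraries) of the 53 members, ordered from left to right by their level with LacZ, with grey circles for LacZ, red squares for FL and blue triangles for dCTD. The span runs from 488948 per kb for Mylpf to 15.4 per kb for Myl3 with LacZ, and Tpm3, Des, Myl6b and Myl2 stand above their LacZ level in at least 1 of the PGC-1alpha groups.

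Most members were lower with either form of PGC-1alpha than with LacZ, and most were lower with FL than with dCTD. All 53 members passed the filter on low values, a mean of at least 10, in each comparison. With FL against LacZ, 35 members fell, where 28.3% of the 18227 genes tested fell, 11 rose, where 30.9% of all genes rose, and 7 did not pass limma's adjusted p of 0.05. In either direction 46 members were called, against 59.2% of all genes. The median log2 fold change was -0.48 over the members and -0.01 over all genes. In 48 members the 3 FL and the 3 LacZ libraries did not overlap, which held for 64.1% of all genes. At least a 2-fold change was reached by 12 members downward, where 4.39% of all genes reached it, and by 1 member upward, where 8.65% did. With dCTD against LacZ, 35 members fell against a background of 21.7% of 18066 genes, 10 rose against 23.1%, and 8 were not called, with a median of -0.30 over the members and -0.01 over all genes. The 45 called members stand against 44.8% of all genes called, and the libraries of 45 members did not overlap, against 52.3%. At least a 2-fold change was reached by 5 members downward against 2.66% of all genes and by 4 upward against 4.3%. With FL against dCTD, 31 members were lower with FL against a background of 17.8% of 18129 genes, 9 were higher against 22.4%, and 13 were not called, with a median of -0.29 over the members and 0.00 over all genes. The 40 called members stand against 40.2% of all genes, 43 members did not overlap, against 48.8%, and at least a 2-fold difference was reached by 3 members lower with FL against 1.33% and by 2 higher against 3.43%. The 2 comparisons with LacZ share the LacZ libraries, so their values are given side by side and not as independent evidence of each other. The shares of all genes given here are also the background for every count by role, fibre type and gene list in the other paragraphs. When libraries were instead scaled by total count without Ppargc1a, 7 members rose and 38 fell with FL against LacZ, and the split over all genes went from 5637 higher and 5162 lower to 4587 higher and 7146 lower. Under that scaling Myot (-0.14), Ttn (-0.36) and Trim55 (-0.10) were also called lower with FL, and Mybpc1, Tmod1, Nrap and Ankrd23 lost their call. For FL against dCTD that split went from 4053 higher and 3228 lower to 3135 higher and 5410 lower.

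**Figure D2:**
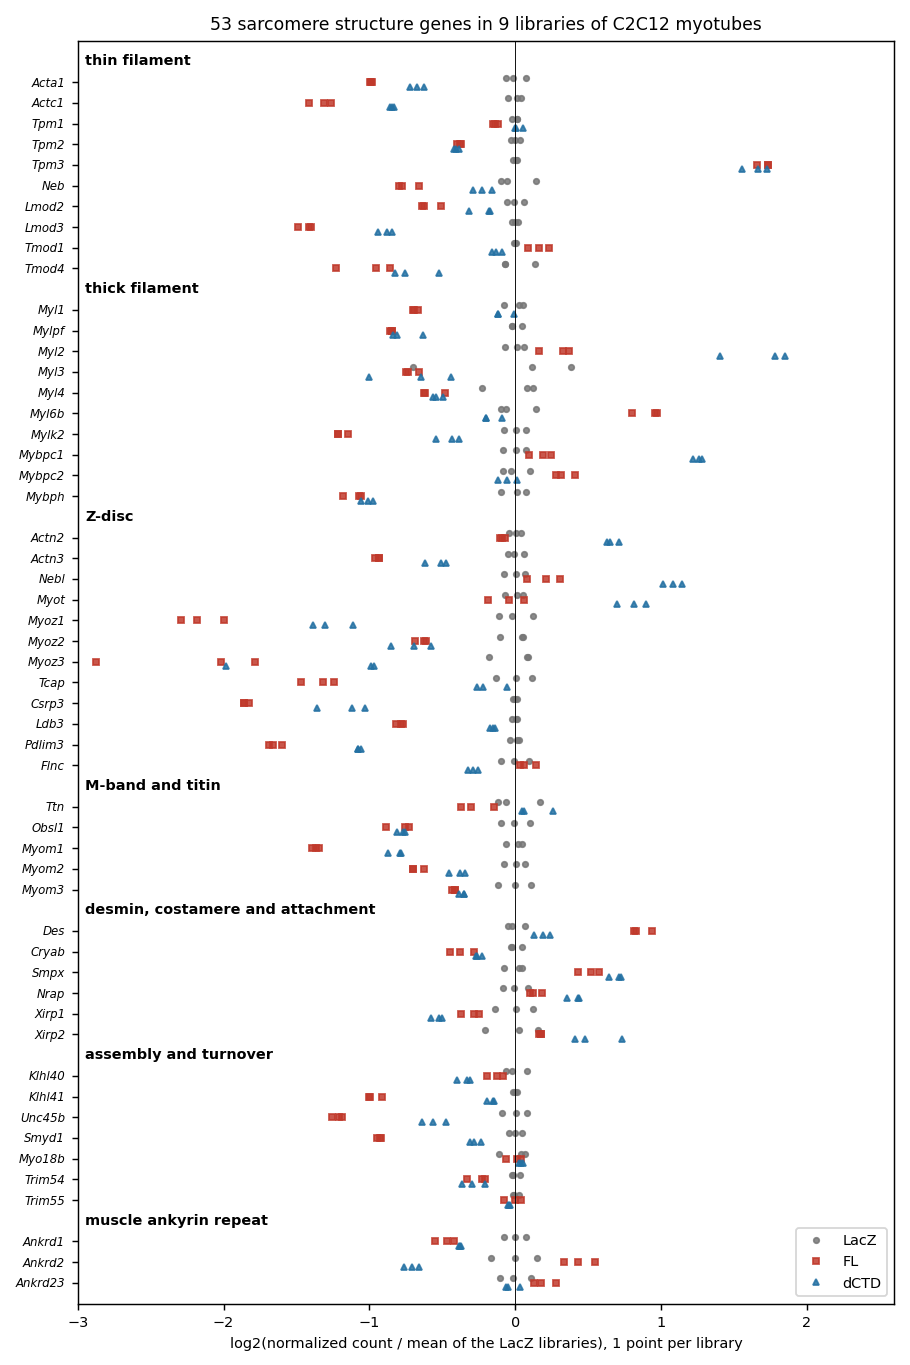
Log2 of each library's normalized count over the mean of the 3 LacZ libraries, for the 53 members grouped by role, with 1 point per library (grey circles LacZ, red squares FL, blue triangles dCTD). Points left of the line at 0 are below LacZ. Myoz1, Myoz3 and Csrp3 lie furthest left with FL, Tpm3 lies furthest right with FL, and Myl2 and Tpm3 lie furthest right with dCTD.

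As a share of all reads, the members held 2.77% ± 0.04 (SD, n = 3) with LacZ, 2.01% ± 0.01 with FL and 2.25% ± 0.05 with dCTD, and the 3 groups did not overlap. Thick filament genes went from 1.005% of reads with LacZ to 0.57% with FL and 0.71% with dCTD, and Z-disc genes from 0.21% to 0.12% and 0.15%. The desmin group went the other way, from 0.30% with LacZ to 0.44% with FL and 0.33% with dCTD, which rested mostly on desmin itself. These shares use no size factors, but dividing by a library's total is itself a scaling by total count. In the fit scaled by total count without Ppargc1a, the median of all genes with FL against LacZ was -0.09, against -0.01 in the main fit. Taking the Ppargc1a reads out of the total left the FL share at 2.02%.

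**Figure D3:**
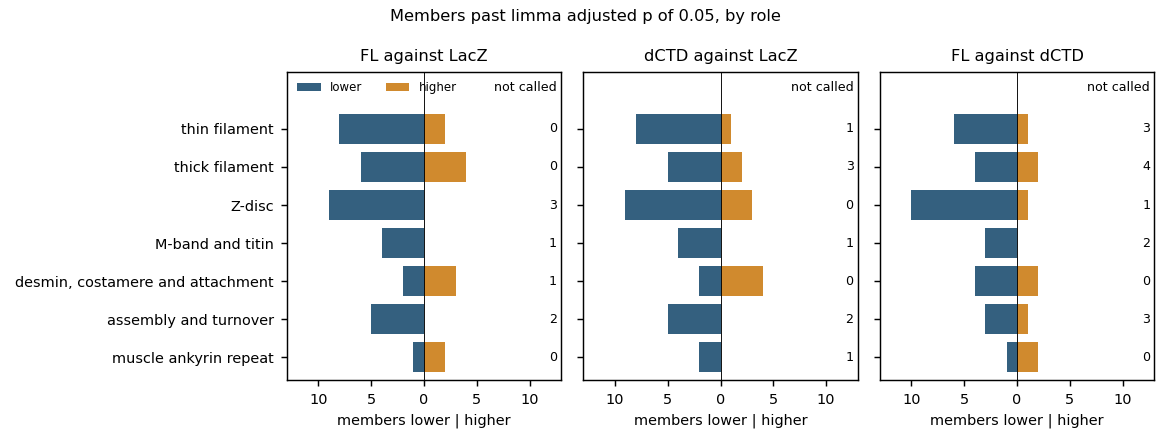
Number of members past limma's adjusted p of 0.05 in each role, with bars to the left for members lower and to the right for members higher in the first-named group, and the number not called at the right edge of each panel. Thin filament, thick filament, Z-disc, M-band and assembly genes show more members lower than higher in all 3 panels, and the desmin group shows more higher than lower against LacZ.

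Of the thin filament genes, 8 of 10 fell and 2 rose with FL, 8 fell and 1 rose with dCTD, and 6 were lower and 1 higher with FL than with dCTD. The skeletal and cardiac alpha-actins, which form the filament's core, fell with both forms. Acta1 (ENSMUSG00000031972, chr8:123891769-123894751, minus strand, mm10) had 259323, 284939 and 268115 normalized counts in the LacZ libraries, 135865, 137304 and 136645 with FL and 175587, 164515 and 169657 with dCTD. Every FL library lay below every dCTD library, and these below every LacZ library. The log2 fold change of Acta1 was -0.99 ± 0.04 (SE; limma adjusted p = 1.2e-19) with FL, -0.68 ± 0.04 (adjusted p = 2.74e-12) with dCTD and -0.31 ± 0.04 (adjusted p = 4.48e-08) for FL against dCTD. Actc1, the cardiac actin that developing skeletal muscle also makes, changed by -1.33, -0.85 and -0.49 in the same order.

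Tpm3, the gene of the tropomyosin typical of slow fibres, was the exception that rose with both forms of PGC-1alpha. Counts were made per gene, so the transcripts of Tpm3 were not told apart. The rise is not shown to be that of the slow muscle tropomyosin. Tpm3 (ENSMUSG00000027940, chr3:90072649-90100902, plus strand) had 33137, 33523 and 33783 normalized counts with LacZ, 111262, 105602 and 111344 with FL and 98290, 106123 and 110688 with dCTD. FL and dCTD libraries overlapped, and all 6 lay above LacZ. It rose 3.27-fold with FL (log2 1.71 ± 0.04, limma adjusted p = 2.74e-26) and 3.12-fold with dCTD (log2 1.64 ± 0.04, adjusted p = 1.15e-19), and the difference between FL and dCTD was 0.06 ± 0.04 (adjusted p = 0.271). Of its 75-base words, 19.1% also stand in other genes, the largest count among them being that of Tpm3-rs7 at 151.1 with LacZ, 325.3 with FL and 310.8 with dCTD, so a small part of its reads may have been divided. Tpm1, the fast-type alpha-tropomyosin, and Tpm2, the beta form, moved less, by -0.14 and -0.38 with FL, both called, and by 0.01 (not called) and -0.41 (called) with dCTD.

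Leiomodins start new actin filaments, and tropomodulins cap their ends. Lmod3 had 25093, 24724 and 24331 normalized counts with LacZ, 9376, 9253 and 8818 with FL and 12877, 13461 and 13757 with dCTD. The 3 groups were separate, with FL lowest. Lmod3 fell by 1.43 ± 0.04 on the log2 scale with FL (limma adjusted p = 1.87e-24) and by 0.90 ± 0.04 with dCTD (adjusted p = 1.11e-15), and it was lower with FL than with dCTD (log2 -0.55 ± 0.04, adjusted p = 2.36e-13). Its relative Lmod2 changed less, by -0.59 with FL and -0.23 with dCTD, both called. Nebulin (Neb), the ruler along the thin filament, changed by -0.74 and -0.23, both called. Tmod4, at 190.6 to 220.4 normalized counts with LacZ, fell by 1.003 with FL and by 0.70 with dCTD.

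Tmod1 (ENSMUSG00000028328, chr4:46038935-46116032, plus strand) went in opposite directions. It had 12867, 13009 and 12959 normalized counts with LacZ, 15230, 13742 and 14487 with FL and 11599, 12165 and 11840 with dCTD, so FL lay above and dCTD below LacZ in every library. Its log2 fold change was 0.16 ± 0.04 with FL (limma adjusted p = 0.000684), -0.13 ± 0.04 with dCTD (adjusted p = 0.00453) and 0.29 ± 0.04 for FL against dCTD (adjusted p = 3.17e-07). The rise with FL missed the threshold under total-count scaling (0.0744, adjusted p = 0.0692). On the opposite strand, 32.6% of its exon bases overlap Tstd2, which was at 4356, 3716 and 3866 in the 3 groups, and the strand setting of the authors' counting is not given in the sources used here.

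Thick filament genes were mixed by isoform. With FL 6 of 10 fell and 4 rose, with dCTD 5 fell, 2 rose and 3 were not called, and FL was lower than dCTD for 4 and higher for 2. The fast light chains, which bind the myosin lever arm, were lower with FL. Mylpf (ENSMUSG00000030672, chr7:127208890-127214298, plus strand), the member with the highest level, had 510582, 534970 and 512236 normalized counts with LacZ, 288918, 288599 and 285749 with FL and 289885, 295614 and 334627 with dCTD. All 6 libraries of the PGC-1alpha groups lay below LacZ, and FL lay below dCTD by less than the distance of either from LacZ. Mylpf fell by 0.85 ± 0.04 with FL (limma adjusted p = 2.14e-18) and by 0.77 ± 0.05 with dCTD (adjusted p = 4.21e-12) on the log2 scale, and the difference between the forms was -0.09 (adjusted p = 0.117). That difference was called without dCTD replicate 1 (-0.13, adjusted p = 0.0452), under total-count scaling (-0.16, adjusted p = 0.00356) and with no filter on low values (adjusted p = 0.00512). Myl1 differed between the forms, with a change of -0.69 with FL and -0.09, not called (adjusted p = 0.116), with dCTD, and -0.61 ± 0.04 for FL against dCTD (adjusted p = 1.02e-13). Without LacZ replicate 1 or dCTD replicate 3 the change with dCTD was called (log2 -0.13 in both, adjusted p = 0.0171 and 0.0275). The pseudogene Mylf-ps, with which it shares 8.1% of its 75-base words, was counted at 28290, 16880 and 26450 in LacZ, FL and dCTD.

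Myl2, the regulatory light chain of slow and cardiac muscle, was highest with dCTD. Myl2 (ENSMUSG00000013936, chr5:122100951-122113472, plus strand) had 2296, 2510 and 2427 normalized counts with LacZ, 3019, 2699 and 3108 with FL and 6388, 8288 and 8679 with dCTD. The 3 groups did not overlap, and dCTD varied most between libraries. It rose by 1.67 ± 0.12 on the log2 scale with dCTD (3.19-fold, limma adjusted p = 9.7e-05) and by 0.29 ± 0.05 with FL (1.22-fold, adjusted p = 1.48e-05), and was lower with FL than with dCTD by a log2 difference of -1.39 ± 0.14 (adjusted p = 0.00164).

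Mybpc1, the slow-type myosin binding protein C that regulates cross-bridges, showed the same order. It had 3204, 3058 and 2875 normalized counts with LacZ, 3614, 3247 and 3476 with FL and 7085, 7304 and 7403 with dCTD. The dCTD libraries lay far above the others, while FL lay just above LacZ. The log2 fold change was 1.25 ± 0.04 with dCTD (limma adjusted p = 2.66e-17), 0.18 ± 0.05 with FL (adjusted p = 0.00165, and 0.0916 with adjusted p = 0.0871 under total-count scaling) and -1.08 ± 0.04 for FL against dCTD (adjusted p = 2.02e-19). Mybpc2, the fast-type form, had 12872, 14073 and 12371 normalized counts with LacZ, 17380, 15887 and 16280 with FL and 12057, 12623 and 13190 with dCTD. FL stood above both other groups, which overlapped, at 0.34 ± 0.04 against LacZ (adjusted p = 2.82e-07) and 0.39 ± 0.04 against dCTD (adjusted p = 2.17e-09).

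Myl6b (ENSMUSG00000039824, chr10:128494157-128498685, minus strand), an essential light chain of slow muscle and non-muscle cells, was the thick filament gene that rose most with FL. It had 7945, 9391 and 8137 normalized counts with LacZ, 16663, 14811 and 16516 with FL and 7963, 7396 and 7389 with dCTD. FL lay above all other libraries. On the shared 9-library scale the dCTD and LacZ libraries overlapped, and within the deposited dCTD table they did not overlap. The log2 fold change was 0.92 ± 0.07 with FL (limma adjusted p = 8.94e-07), -0.17 ± 0.05 with dCTD (adjusted p = 0.0163) and 1.08 ± 0.04 for FL against dCTD (adjusted p = 2.74e-17). The small fall with dCTD lost its call without LacZ replicate 2 (-0.0935, adjusted p = 0.107), dCTD replicate 2 (adjusted p = 0.0574) or dCTD replicate 3 (adjusted p = 0.0828).

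Mylk2, the skeletal muscle kinase that phosphorylates the regulatory light chain, had 3913, 3732 and 3528 normalized counts with LacZ, 1681, 1600 and 1607 with FL and 2847, 2552 and 2756 with dCTD. The groups were separate, with FL lowest, at -1.19 ± 0.05 with FL (limma adjusted p = 5.85e-20), -0.46 ± 0.05 with dCTD (adjusted p = 2.36e-08) and -0.74 ± 0.05 for FL against dCTD (adjusted p = 5.19e-14). Myosin binding protein H, Mybph, fell by 1.10 with FL and by 1.02 with dCTD, and FL against dCTD was at -0.09 (adjusted p = 0.0649). That difference was called without FL replicate 1 or dCTD replicate 2 (log2 -0.11 in both, adjusted p = 0.0382 and 0.0398). Under total-count scaling it was -0.16 and called (adjusted p = 0.000904). It was also called with TMM size factors (adjusted p = 0.0348), no filter on low values (adjusted p = 0.0306), edgeR (adjusted p = 0.0498) and DESeq2 (adjusted p = 0.0379). Of the Mybph exon bases 49.9% overlap Adora1 on the other strand, and Adora1 was counted at 170.8, 488 and 538.1 in LacZ, FL and dCTD against 82751, 38545 and 40973 for Mybph. In all, 10 members overlap a gene on the other strand over more than 5% of their exon bases, and in 7 of them, all but Mybph, Tmod1 and Cryab, that gene was at 35.9 normalized counts or fewer. The embryonic and atrial light chain Myl4 fell by 0.57 with FL and 0.54 with dCTD. Myl3 held 103 reads in the LacZ group, 56 in the FL group and 57 in the dCTD group. Its call with FL (-0.62 ± 0.27, adjusted p = 0.0444) was lost without LacZ replicate 1 or 2 or any 1 of the FL libraries (adjusted p = 0.0688 to 0.258).

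**Figure D4:**
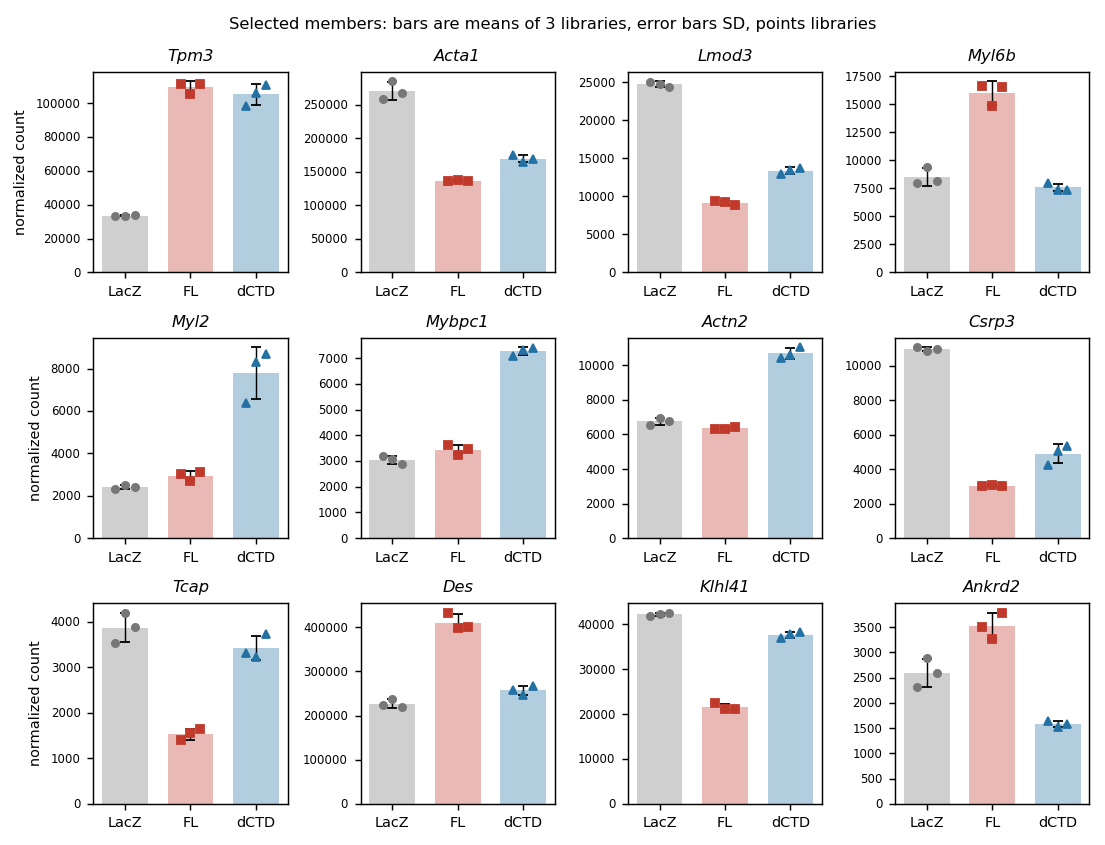
Normalized counts on the shared scale of 12 members, with bars for the mean of 3 libraries, error bars for the SD and points for libraries (grey LacZ, red FL, blue dCTD), and axes from 0. Tpm3 is high with both forms, Acta1, Lmod3 and Csrp3 are low with both, Myl6b and Des are highest with FL, Myl2, Mybpc1 and Actn2 are highest with dCTD, Tcap and Klhl41 are low mainly with FL, and Ankrd2 is above LacZ with FL and below it with dCTD.

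The Z-disc genes had the lowest median of any role with FL, a log2 change of -0.87 over 12 genes, with 9 lower, none higher and 3 not called. With dCTD 9 fell and 3 rose, and FL was lower than dCTD for 10 of the 12 and higher for 1. Csrp3 (ENSMUSG00000030470, chr7:48830398-48848033, minus strand), the muscle LIM protein of the Z-disc, had 11093, 10884 and 10957 normalized counts with LacZ, 3029, 3100 and 3018 with FL and 4274, 5051 and 5375 with dCTD. All 3 groups were separate, and Csrp3 stood at 0.278 of its LacZ level with FL (log2 -1.85 ± 0.04, limma adjusted p = 3.73e-27) and at 0.442 of it with dCTD (log2 -1.18 ± 0.07, adjusted p = 6.43e-09). Pdlim3, an actinin-binding PDZ-LIM protein, had 42544, 42091 and 40791 normalized counts with LacZ, 13211, 13799 and 12977 with FL and 19763, 20114 and 19809 with dCTD. It followed the same order, with log2 changes of -1.65 ± 0.04 with FL (adjusted p = 6.87e-26) and -1.08 ± 0.04 with dCTD (adjusted p = 1.91e-17).

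Calsarcins link alpha-actinin to the phosphatase calcineurin. The fast-fibre calsarcin Myoz1 had 662.8, 731 and 622.9 normalized counts with LacZ, 137.5, 148.2 and 168.1 with FL and 272.6, 257.2 and 310.2 with dCTD. It changed by -2.15 ± 0.09 with FL (limma adjusted p = 6.98e-19) and -1.27 ± 0.09 with dCTD (adjusted p = 6.88e-12), and its values were chosen for print after they were seen. Myoz3 held 214 reads in the LacZ group and 43 in the FL group, with -2.14 ± 0.25 with FL and -1.28 ± 0.23 with dCTD, both called, and its call for FL against dCTD (-0.86, adjusted p = 0.0338) was lost without FL replicate 1 (-0.56) and without dCTD replicate 1 (-0.70) or 2 (-0.71). Myoz2, the calsarcin of slow and cardiac muscle, changed by -0.64 with FL and -0.71 with dCTD, both called, and FL against dCTD was at 0.07, not called, and at 0.13 and called without dCTD replicate 3 (adjusted p = 0.0127).

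The Z-disc's actinins parted. Actn2 (ENSMUSG00000052374, chr13:12269426-12340760, minus strand), the alpha-actinin of all fibre types that cross-links actin, had 6554, 6960 and 6781 normalized counts with LacZ, 6305, 6337 and 6450 with FL and 10445, 10610 and 11057 with dCTD. dCTD lay far above the other groups, and FL lay just below LacZ. Its log2 fold change was 0.65 ± 0.04 with dCTD (limma adjusted p = 7.84e-13) and -0.75 ± 0.04 for FL against dCTD (adjusted p = 5.86e-17). The change with FL of -0.09 ± 0.04 (adjusted p = 0.0478) held its call without LacZ replicate 1 and lost it without any other library of the 2 groups (adjusted p = 0.0773 to 0.163). Actn3, the actinin of fast fibres, fell by 0.94 with FL and by 0.54 with dCTD.

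Myot and Nebl were called higher with dCTD and were not called with FL. Myotilin (Myot), which bundles actin at the Z-disc, had 3018, 2768 and 2932 normalized counts with LacZ, 3026, 2558 and 2818 with FL and 4704, 5119 and 5405 with dCTD. FL and LacZ overlapped, and dCTD stood at 0.80 ± 0.05 above LacZ (limma adjusted p = 2.33e-12), with FL against dCTD at -0.86 ± 0.06 (adjusted p = 5.11e-09). Nebulette (Nebl), the short relative of nebulin best known from the heart, had 276.1, 293 and 306.2 normalized counts with LacZ, 338.2, 361.7 and 308.3 with FL and 587.5, 645.4 and 616.6 with dCTD. It rose by 1.07 ± 0.08 with dCTD (adjusted p = 2.88e-11), and the change with FL was 0.20 ± 0.09 (adjusted p = 0.0512), a call that was made without LacZ replicate 3 (adjusted p = 0.0498) or FL replicate 3 (adjusted p = 0.0236).

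Tcap, or telethonin, which caps the end of titin, and Ldb3, a PDZ-LIM protein that binds actinin, were lower mainly with FL. Tcap had 3539, 4190 and 3879 normalized counts with LacZ, 1396, 1548 and 1632 with FL and 3312, 3227 and 3724 with dCTD. FL lay below both other groups, which overlapped, with a log2 change of -1.34 ± 0.06 against LacZ (limma adjusted p = 2.24e-12) and -1.17 ± 0.06 against dCTD (adjusted p = 8.31e-14). The change with dCTD against LacZ, -0.18 (adjusted p = 0.021), lost its call without LacZ replicate 2 or 3 or dCTD replicate 1 or 2 (adjusted p = 0.064 to 0.0796). Ldb3 changed by -0.79 with FL, -0.16 with dCTD and -0.63 between them, all called. Filamin C (Flnc), an actin cross-linker at the Z-disc, had 51267, 47736 and 44772 normalized counts with LacZ, 48913, 52914 and 49876 with FL and 38316, 39194 and 40115 with dCTD. Only dCTD stood apart, at -0.30 ± 0.04 against LacZ (adjusted p = 5.51e-06), and FL was 0.37 ± 0.04 above dCTD (adjusted p = 2.1e-09). For FL against LacZ, Flnc was at 0.08 (adjusted p = 0.125), or -0.0077 under total-count scaling, and was called without LacZ replicate 1 (0.13, adjusted p = 0.00343).

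In the group of the M-band and titin 4 of the 5 genes fell with FL and with dCTD, and none rose. Myom1 (ENSMUSG00000024049, chr17:71002633-71126856, plus strand), the myomesin that cross-links thick filaments, had 17257, 16986 and 16010 normalized counts with LacZ, 6592, 6373 and 6484 with FL and 9163, 9663 and 9717 with dCTD. The groups were separate, with FL lowest, at -1.37 ± 0.04 with FL (limma adjusted p = 1.09e-23), -0.82 ± 0.04 with dCTD (adjusted p = 1.44e-14) and -0.55 ± 0.04 between them (adjusted p = 1.1e-13). Myom2, typical of fast fibres, changed by -0.68 and -0.40 and Myom3 by -0.42 and -0.37 with FL and dCTD, all called. Obsl1, an obscurin relative that ties the M-band to the rest of the cytoskeleton, fell by 0.79 with FL and by 0.78 with dCTD.

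Titin, the giant spring from Z-disc to M-band, lay near the threshold with FL. Ttn had 138135, 113275 and 117507 normalized counts with LacZ, 94901, 111296 and 99541 with FL and 127237, 147022 and 128356 with dCTD. FL lay below LacZ in every library and below dCTD, and LacZ and dCTD overlapped. FL was lower than dCTD (log2 -0.40 ± 0.07, limma adjusted p = 0.000361). Against LacZ the change with FL was -0.27 ± 0.09 (adjusted p = 0.0508), and it was called without LacZ replicate 1 (-0.18, adjusted p = 2.44e-05), LacZ replicate 2 (adjusted p = 0.00718) or FL replicate 2 (adjusted p = 0.00583). That change was also called under total-count scaling (-0.36, adjusted p = 0.0359), by edgeR (adjusted p = 0.000144) and by DESeq2 (adjusted p = 0.0345). With dCTD it was 0.12 (adjusted p = 0.252), and 0.21 without LacZ replicate 1 (adjusted p = 0.00138).

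In the group of desmin, the costamere and filament attachment more members were higher than lower against LacZ, 3 against 2 with FL and 4 against 2 with dCTD of 6. The excess with FL rested on Nrap, whose call was lost under total-count scaling (limma adjusted p = 0.29) and without LacZ replicate 3 (adjusted p = 0.0654). Over all genes tested 30.9% were higher and 28.3% lower with FL, and 23.1% higher and 21.7% lower with dCTD. Desmin (Des, ENSMUSG00000026208, chr1:75360329-75368579, plus strand), the intermediate filament around the Z-disc, had 223071, 237748 and 218635 normalized counts with LacZ, 433182, 398073 and 401801 with FL and 258116, 247578 and 267550 with dCTD. The groups were separate, with FL highest, at 0.86 ± 0.04 with FL (1.82-fold, limma adjusted p = 1.85e-17), 0.18 ± 0.04 with dCTD (1.13-fold, adjusted p = 0.00161) and 0.67 ± 0.04 between them (adjusted p = 3.54e-14). Smpx, a small muscle protein of the costamere, had 14361, 15472 and 15692 normalized counts with LacZ, 22562, 20447 and 21763 with FL and 23653, 25034 and 24852 with dCTD. Both forms lay above LacZ, with dCTD highest, at 0.51 ± 0.04 with FL (adjusted p = 7.49e-12) and 0.68 ± 0.04 with dCTD (adjusted p = 7.21e-13).

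The chaperone of desmin, alphaB-crystallin (Cryab), fell. It had 43450, 45780 and 43482 normalized counts with LacZ, 36286, 33954 and 32467 with FL and 36837, 36722 and 37758 with dCTD, with log2 changes of -0.37 ± 0.04 (limma adjusted p = 3.53e-09) and -0.26 ± 0.04 (adjusted p = 3.78e-06). On the other strand Cryab overlaps Hspb2 over 17.0% of its exon bases, and Hspb2 was counted at 4463, 2314 and 2692. FL was below dCTD (log2 -0.12, adjusted p = 0.0156), a call lost without FL replicate 3 (-0.08, adjusted p = 0.179). Xirp1, an actin-binding Xin repeat protein of attachment sites and repair, had 13447, 12398 and 11232 normalized counts with LacZ, 10404, 10169 and 9542 with FL and 8280, 8731 and 8613 with dCTD. Here dCTD was lowest, at -0.54 ± 0.05 against -0.30 ± 0.06 with FL (adjusted p = 3.72e-08 and 0.000404), and FL was 0.23 ± 0.04 above dCTD (adjusted p = 8.24e-06).

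Its relative Xirp2 and the nebulin-related anchoring protein Nrap were highest with dCTD. Nrap, which acts at the tips of growing myofibrils, changed by 0.14 with FL (limma adjusted p = 0.00509) and by 0.40 with dCTD (adjusted p = 2.81e-08). The call with FL was lost without LacZ replicate 3 (adjusted p = 0.0654) and under total-count scaling (0.0495, adjusted p = 0.29). Xirp2 was at 0.54 ± 0.13 with dCTD (adjusted p = 0.0215), a call lost without dCTD replicate 3 (adjusted p = 0.0671). With FL it was at 0.18 (adjusted p = 0.114), and 0.26 without LacZ replicate 1 (adjusted p = 9.85e-09). The change of Xirp2 with FL was also called by edgeR (adjusted p = 0.0142), with no filter on low values (limma adjusted p = 0.000262) and with the replicate block (limma adjusted p = 0.000809).

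Of the 7 assembly and turnover genes 5 fell and 2 were not called with each form, and none rose. Unc45b (ENSMUSG00000018845, chr11:82910550-82943403, plus strand), the chaperone that folds the myosin head, had 13749, 14428 and 12854 normalized counts with LacZ, 6001, 5911 and 5710 with FL and 9244, 8798 and 9861 with dCTD. The groups were separate, with FL lowest, at -1.22 ± 0.04 with FL (limma adjusted p = 1.21e-21), -0.56 ± 0.05 with dCTD (adjusted p = 6.72e-10) and -0.66 ± 0.04 between them (adjusted p = 1.47e-14). Smyd1, a methyltransferase that acts with it in myosin assembly, changed by -0.93 and -0.28, both called. Klhl41, a kelch protein that stabilises nebulin, had 41883, 42291 and 42595 normalized counts with LacZ, 22474, 21212 and 21082 with FL and 36873, 37967 and 38242 with dCTD. FL stood far below the other groups, at -0.97 ± 0.04 (adjusted p = 4.62e-20) against -0.17 ± 0.04 with dCTD (adjusted p = 0.000436), and at -0.80 ± 0.04 against dCTD (adjusted p = 1.88e-17).

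Klhl40, the kelch protein that stabilises Lmod3 and nebulin, went the other way between the forms. It had 7809, 8601 and 8033 normalized counts with LacZ, 7695, 7126 and 7473 with FL and 6482, 6176 and 6584 with dCTD. dCTD was lowest, at -0.35 ± 0.04 (limma adjusted p = 1.95e-07), and FL was 0.21 ± 0.04 above dCTD (adjusted p = 3.38e-05). The fall with FL (log2 -0.13 ± 0.04, adjusted p = 0.00657) lost its call without LacZ replicate 2 (adjusted p = 0.0658) or FL replicate 2 (adjusted p = 0.0554). Of the muscle ring finger ligases that bind titin and microtubules, Trim54 changed by -0.25 and -0.30, both called, and Trim55 by -0.01 and -0.05, neither called. Myo18b, an unconventional myosin needed for sarcomere assembly, was at 0.00 and 0.03, neither called, and FL against dCTD was at -0.04, not called, or -0.11 and called under total-count scaling (adjusted p = 0.0203).

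The muscle ankyrin repeat proteins bind titin near its spring and also enter the nucleus, and the 3 genes did not move together. Ankrd2 (ENSMUSG00000025172, chr19:42036000-42045110, plus strand) had 2314, 2880 and 2588 normalized counts with LacZ, 3503, 3272 and 3784 with FL and 1643, 1525 and 1590 with dCTD. FL lay above and dCTD below LacZ in every library. The log2 change was 0.44 ± 0.08 with FL (limma adjusted p = 0.00108), -0.71 ± 0.06 with dCTD (adjusted p = 1e-08) and 1.15 ± 0.05 for FL against dCTD (2.22-fold, adjusted p = 7.48e-18). Ankrd1, whose level per kb was higher than that of Ankrd2 in all 3 groups, had 97026, 87624 and 92210 normalized counts with LacZ, 68911, 66633 and 63105 with FL and 70955, 70757 and 71157 with dCTD. Both forms lay below LacZ, at -0.48 ± 0.04 with FL (adjusted p = 3.33e-11) and -0.39 ± 0.04 with dCTD (adjusted p = 2.95e-08). The difference between the forms, -0.10 (adjusted p = 0.0334), lost its call without FL replicate 2 or 3 or dCTD replicate 1 or 2 (adjusted p = 0.0504 to 0.273). Ankrd23 rose by 0.20 with FL (adjusted p = 0.00468, and 0.11 with adjusted p = 0.102 under total-count scaling) and was at -0.03 with dCTD. Of its 75-base words 73.0% also stand in Gm42417, a gene on the same strand that was counted at under 1 in each group, so reads from those words may not have been counted.

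Members were also counted by the fibre type assigned to them, 8 fast and 9 slow, by gene and not by transcript. The fast list held Actn3, Mybpc2, Myl1, Mylk2, Mylpf, Myoz1, Myoz3 and Tmod4. The slow list held Ankrd2, Csrp3, Mybpc1, Myl2, Myl3, Myl6b, Myom3, Myoz2 and Tpm3. Tpm1 and Myom2, named above with fast muscle, were in neither list, at -0.14 and -0.68 with FL and 0.01 and -0.40 with dCTD. With FL 7 of the 8 fast members fell and 1 rose, with a median of -0.97, against 4 of 9 slow members lower and 5 higher with a median of 0.18. That slow median was the value of Mybpc1, whose rise lost its call under total-count scaling (0.0916, limma adjusted p = 0.0871). Among the slow members that fell, Myl3 lost its call without LacZ replicate 1 or 2 or any 1 FL library. Over all genes tested 28.3% fell and 30.9% rose with FL. With dCTD 6 fast members fell and none rose, and 5 slow members fell and 3 rose, with medians of -0.62 and -0.37. The shares of all genes with dCTD were 21.7% lower and 23.1% higher. The slow list was not uniform, since it held Tpm3 and Myl2 as well as Csrp3 and Myoz2, which fell. No test of the difference between the fast and slow lists was run.

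Ratios within 13 pairs of related genes, which do not depend on library scaling, were compared by 39 exact two-sided permutation tests over libraries. With 3 libraries against 3 the smallest p such a test can give is 0.1, or 0.111 after Benjamini-Hochberg adjustment over the 39, so no pair could pass 0.05, and this smallest value was reached by 11 of the 13 pairs for each form against LacZ and by all 13 between the forms. The log2 ratio of Tpm3 to Tpm1 was -2.43 ± 0.01 (SD, n = 3) with LacZ, -0.59 ± 0.03 with FL and -0.81 ± 0.07 with dCTD, a rise of 3.59-fold and 3.09-fold. The ratio of Myl2 to Mylpf rose 2.2-fold with FL and 5.43-fold with dCTD, and Mybpc1 to Mybpc2 was 2.48-fold higher with dCTD and at 0.897 of its LacZ value with FL. In both of these slow-over-fast pairs dCTD was highest in all libraries. Actn2 to Actn3 was 1.81-fold higher with FL and 2.29-fold higher with dCTD. Myoz2 to Myoz1 was 2.84-fold higher with FL and 1.47-fold higher with dCTD, so in this pair FL was highest. The cardiac over skeletal actin ratio, Actc1 to Acta1, was at 0.788 of its LacZ value with FL and 0.888 with dCTD. Ankrd1 to Ankrd2 was at 0.528 with FL and 1.25 with dCTD, below and above LacZ.

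**Figure D5:**
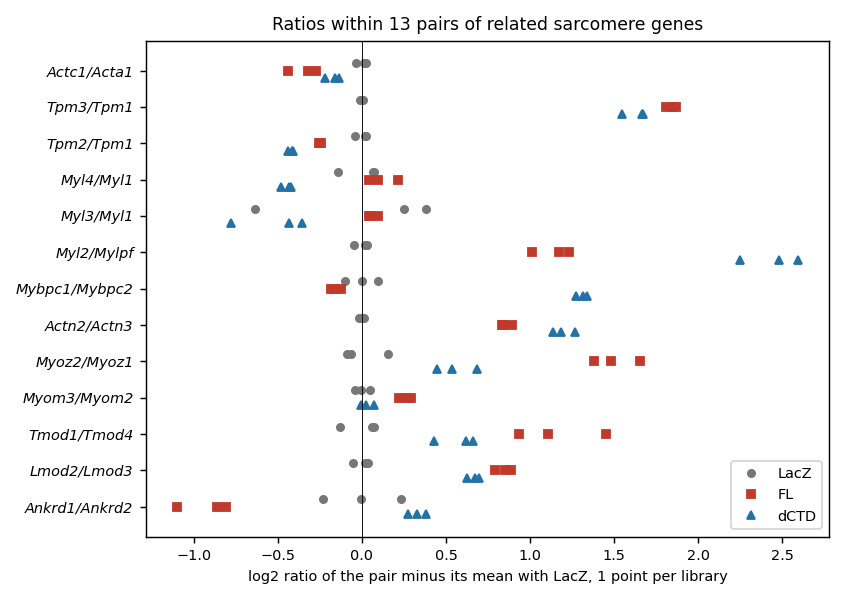
Log2 ratio of the 2 genes of each of 13 pairs, minus the mean ratio with LacZ, with 1 point per library (grey circles LacZ, red squares FL, blue triangles dCTD). Tpm3/Tpm1 and Myl2/Mylpf lie furthest to the right of 0, and Ankrd1/Ankrd2 lies left of 0 with FL and right of it with dCTD.

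Other genes of the sarcomere and of its control were counted from lists. Of 27 other structural genes 25 could be tested, and 16 fell and 7 rose with FL, 10 fell and 8 rose with dCTD, and 15 were lower and 5 higher with FL than with dCTD. Among them Mybpc3, the cardiac myosin binding protein C, had a mean of 31.98 ± 3.71 normalized counts (SD, n = 3) with LacZ, 3083 ± 237 with FL and 450.5 ± 15.5 with dCTD, a log2 change of 6.55 ± 0.09 with FL (limma adjusted p = 7.77e-31) and 3.77 ± 0.13 with dCTD (adjusted p = 1.19e-17). Synpo2l, an actin-binding Z-disc protein, fell by 1.08 with FL and by 0.88 with dCTD. Of 12 other chaperones and ligases 6 rose and 5 fell with FL, with Trim63, the ligase MuRF1, at -1.34 and the small heat shock protein Hspb7 at 0.95.

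Of 17 transcriptional regulators of sarcomere genes, 12 fell, 1 rose and 4 were not called with FL, and 6 fell and 2 rose with dCTD. Of all genes tested, 28.3% fell and 30.9% rose with FL, and 21.7% fell and 23.1% rose with dCTD. Mef2c, a MADS-box factor of muscle genes, had a mean of 45080 ± 839 normalized counts with LacZ, 18480 ± 244 with FL and 25410 ± 1260 with dCTD, at -1.29 with FL and -0.84 with dCTD, both called. Abra, an actin-binding activator of serum response factor signalling, was the 1 that rose with FL, from 4833 ± 319 with LacZ to 18880 ± 948 with FL and 14820 ± 1540 with dCTD, or 1.97 and 1.61 on the log2 scale.

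Beside the slow and cardiac isoforms, 9 markers of cardiac muscle were counted, of which Mybpc3 is also in the structural list. Of the 6 that could be tested 3 rose and 2 fell with FL and 4 rose and 1 fell with dCTD, and their summed level was 1986 to 2115 in the LacZ, 7435 to 8226 in the FL and 10485 to 11964 in the dCTD libraries. Most of the sum with dCTD was Tnni3, the cardiac troponin I, at a mean of 594.3 with LacZ, 2579 with FL and 8856 with dCTD, while Myh6, the cardiac alpha myosin heavy chain, was at 428.7, 196 and 266.9 (log2 -1.13 with FL and -0.69 with dCTD, both called). Tbx5 was at 0 reads in all groups and was the only 1 of the 9 without reads in a group. Nkx2-5 held 43 reads in the LacZ group, 49 in the FL group and 48 in the dCTD group. Gata4 was at log2 1.04 with FL. Of 7 smooth muscle markers 3 fell and 1 rose with FL and 3 fell with dCTD, with Smtn and Lmod1 at -0.57 and -0.81 with FL, and sums of 311826 to 320961, 279615 to 286806 and 276165 to 313762 in LacZ, FL and dCTD. Of 10 fibroblast markers 8 could be tested, and 2 rose and 2 fell with FL and 1 rose and 1 fell with dCTD, with Tcf21 at 0 reads in all groups. With FL, Postn and Dcn were at -0.45 and -0.19, and the 2 that rose, Fap (60 reads in the LacZ group) and Col1a1, were at 0.82 and 0.14. Sums were 862307 to 878760 in the LacZ, 799151 to 811066 in the FL and 805711 to 838256 in the dCTD libraries. The part of these cell types in the results was not tested.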

How the data were processed

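Polyadenylated RNA of 9 C2C12 cultures was sequenced from stranded libraries, per the labels' protocols. The submitters' processing notes list DESeq2 2.11.40.6, featureCounts 1.6.4, STAR 2.7.2b, Trim Galore 0.4.3.1 and FastQC 0.72, and the build mm10. No settings are listed, and whether counting used strand is not given in the sources used here. The authors deposited 2 tables of 55421 genes, FL with LacZ and dCTD with LacZ, whose values, per the file headers, are normalized counts. They are a signal in which, from the deposited values themselves, whole reads had been divided by a factor per library. Whole reads were recovered for 100% of the 317312 values above 0 within 0.001 reads, and at 0 genes did the LacZ reads differ from table to table. Both deposited tables also hold the authors' log2 fold changes, p-values and test scores, which were not used. Deposited start positions count from 0 and are given here from 1.

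FL and dCTD were each compared with LacZ within their own deposited table by limma 3.58.1 in R 4.3.3 (trend, robust) on log2(value + 1), keeping genes whose mean reached 10. Two-sided p-values were adjusted over all genes tested by the Benjamini-Hochberg method, with 0.05 as the threshold. Such fold changes understate the change of low genes. FL and dCTD were compared by the same test on recovered reads after scaling the 9 libraries together by median-of-ratios size factors. That shared scale is used for every printed level, so a printed level and a fold change against LacZ come from different scalings. Exon lengths and shared 75-base words came from GENCODE M21, whose positions equal the deposited ones for 52 of 53 members, and promoters from RefSeq.

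All members may be named. Values per library were printed for the member with the smallest p in each role and comparison, for members called against most of their role, and for some others chosen after their values were seen: Acta1, Mylpf, Myoz1, Tcap and Ttn. Values of Myog, Myod1, Pax7, Myf5, Vcam1, Met, Spry1, Cdh15, Notch1, Tnni3, Myh6, Fap and Col1a1 were likewise chosen after they were seen. From each other list 2 genes were named, those of lowest p with FL against LacZ. Members and lists were chosen with earlier results of these data known. The scripts were tested on simulated data. Alternatives were other scalings, pseudocounts, filters and variance settings, edgeR 4.0.16 and DESeq2 1.42.0 on the recovered reads, a replicate block, and each library left out. The in vitro assay of the design text was not analysed here.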

Additional observations from a re-analysis of the deposited data

Results flagged for a closer look

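Among the 53 genes, 4 were called in opposite directions against LacZ with the 2 forms of PGC-1alpha and also differed between the forms, by limma on all genes tested, with the LacZ libraries shared by both comparisons. Ankrd2, a titin-binding ankyrin repeat protein, had a log2 difference of 1.15 for FL minus dCTD. Myl6b, an essential light chain, had a log2 difference of 1.08, and its call with dCTD against LacZ was lost without LacZ replicate 2, dCTD replicate 2 or dCTD replicate 3, and without the variance trend. Actn2, a Z-disc actinin, had a log2 difference of -0.75, the only 1 of the 4 that was higher with dCTD, and its call with FL against LacZ was lost in the fit without LacZ replicate 2 or 3 or any 1 FL library. Tmod1, a pointed-end cap, had a log2 difference of 0.29, and its call with FL was lost under total-count scaling. Single libraries were not tested as outliers, since each group has 3.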

How the results depend on the processing

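The number of genes called, the numbers of members higher and lower, and the log2 change of each member were recomputed under 15 alternatives for each comparison, and the counts of members lower and of all genes called stayed within 1.5 times of their reported values in all of them. The number of members higher with FL against LacZ was 11, and 7 when libraries were scaled by total count without Ppargc1a, which moved the median of all genes to -0.09. With each library left out in turn it was 11 to 13, and the number lower was 33 to 35. With the replicate number as a block, 12 members rose and 34 fell with FL and 9 rose and 35 fell with dCTD, and 9 were higher and 31 lower for FL against dCTD. Over all genes the block gave 10720, 7396 and 7431 calls against 10799, 8094 and 7281. Libraries with the same number did not deviate together (correlations of -0.176 to 0.088 over 14384 genes, and not every library was closest to its own number), so the numbers were not taken as pairs. Under total-count scaling log2 changes near 0 turned sign for Flnc (-0.0077) with FL against LacZ, and for Tpm3 (-0.0071), Myoz2 (-0.0008), Tpm2 (-0.0495), Trim55 (-0.0361) and Trim54 (-0.0312) for FL against dCTD. Leaving out 1 library at a time gave both signs, with FL against LacZ, for Myo18b (-0.0573 to 0.0330), Myot (-0.1132 to 0.0088) and Trim55 (-0.0389 to 0.0177), with dCTD, for Ankrd23 (-0.0798 to 0.0249), Myo18b (-0.0223 to 0.0688) and Tpm1 (-0.0048 to 0.0230), and between the forms, for Obsl1 (-0.0419 to 0.0354), Myoz2 (-0.0048 to 0.1310), Trim54 (-0.0003 to 0.0761) and Myl3 (-0.1644 to 0.1). Of these Myoz2 was called, at 0.1310, without dCTD replicate 3. The cause of these changes was not tested. Calls were lost under at least 1 alternative for 7 members with FL, 4 with dCTD and 3 between the forms, and gained for 6, 3 and 7. With the block the call of Actn2 with FL (adjusted p = 0.072) and that of Xirp2 with dCTD (adjusted p = 0.114) were lost, and that of Xirp2 with FL (adjusted p = 0.000809) was made. In the last 150 bases before the start, the E-box was in 22.4% of members' windows against 8.39% of all windows, the CArG box in 12.2% against 0.916%, and the ERR element in 0 of 49 against 2.31%. Ratios and read shares were recomputed with each library left out, and counts by role, fibre type and list and levels per kb were not recomputed. Depth limits Myl3 and Myoz3, with under 250 reads over any group.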
